A study of Mus musculus with 24 samples.

Results

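The 7 mesenchymal transition transcription factors *Snai1*, *Snai2*, *Twist1*, *Twist2*, *Zeb1*, *Zeb2*, and *Prrx1* were taken as a fixed set by name. All 7 were among the 14427 genes with deposited read counts, and their levels were followed by RNA-seq in 8 lines of cultured mouse astrocytes with 3 replicates each, 24 libraries in all. The lines came from cortical astrocytes of postnatal day 1 C57BL/6 pups, 1 male and 1 female culture, at passages 10 to 15. In each culture a Trp53 Knockout line, called p53 KO here, served as the control for 3 lines labelled Trp53:R172H, Trp53:Y202C, and Trp53:Y217C Overexpression, called p53 R172H, p53 Y202C, and p53 Y217C. Each replaces 1 amino acid of p53, the tumor suppressor that controls the cell cycle and the response to DNA damage, within its DNA-binding domain.

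Each culture pooled at least 3 pups with 1 floxed and 1 deleted *Trp53* allele, and all lines received Cre. The mutant lines had also been transduced with a retrovirus carrying mutant p53 and eGFP and sorted for eGFP, which the p53 KO lines had not, so the mutation and these steps cannot be told apart. The cultures differ in sex and in the pups they came from, and those cannot be told apart either. Replicates of 1 line measure the spread between libraries of that line, which may be technical, and not between animals.

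Snail (*Snai1*) and Slug (*Snai2*) are zinc finger repressors, ZEB1 and ZEB2 are zinc finger and homeodomain repressors, TWIST1 and TWIST2 are basic helix-loop-helix factors that pair with E proteins, and PRRX1 is a paired-type homeodomain factor of mesenchyme. In an epithelial to mesenchymal transition the zinc finger factors bind E-box sequences and repress junction genes such as *Cdh1*, which encodes E-cadherin, while cells gain *Vim*, *Fn1*, and *Cdh2*. In glioma the same factors are studied for invasion and for a mesenchymal tumor state.

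*Trp53* was measured at 48.2 to 53.7 CPM in male p53 KO, 46.5 to 51.9 CPM in female p53 KO, and 572 to 3870 CPM in the mutant lines, where CPM is the count scaled by TMM to a common library size. This separates the overexpressing lines from p53 KO and does not show which mutation a library carries. Mean *Trp53* was 2287 CPM in male and 1956 CPM in female p53 R172H. It was 2324 and 593 CPM with p53 Y202C, and 1215 and 3709 CPM with p53 Y217C, male first. The same mutation was thus expressed at unequal levels in the 2 cultures. Without a line carrying wild-type p53 it does not check the deletion. Total counts ranged from 52787288 to 136503809 per library, and the members held between 118 and 59464 counts in a library, with the fewest for *Twist2*. *Gfap*, a defining astrocyte gene, was at most 0.290 CPM in the 21 libraries outside male p53 Y217C and listed at 0 in 2 of them, against 4.98 to 8.37 CPM in male p53 Y217C. Of 12 astrocyte markers 11 were counted, with a summed level of 501 to 1058 CPM. Of 16 fibroblast or meningeal markers 15 were counted, with a summed level from 9294 CPM in male p53 Y202C to 51384 CPM in female p53 R172H. Of the markers of other cell types, 7 of 9 mural, 4 of 8 endothelial, 4 of 7 neuronal, 3 of 7 oligodendrocyte lineage, and 2 of 9 microglial genes were in the table. The mural markers summed to 2435 CPM in the lowest library, of male p53 Y202C, and 4459 CPM in the highest, of male p53 Y217C. The other lists of this group summed to at most 335 CPM, reached by the oligodendrocyte lineage markers in male p53 R172H. In bulk samples fewer cells of a type and less RNA per cell cannot be told apart.

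The genomic windows before 3 of the start sites are shown for *Snai1*, which varied most among the members, and for *Twist1* and *Twist2*, a pair of paralogs that moved in opposite directions in male p53 Y217C. Each sequence is the 250 bases before the RefSeq start site on GRCm38.p6, read 5′ to 3′ on the gene's strand, and capitals mark the E-box CAGGTG on either strand. *Snai1* lies on the plus strand of chromosome 2 with its window at chr2:167537945-167538194, *Twist1* on the plus strand of chromosome 12 with chr12:33957421-33957670, and *Twist2* on the plus strand of chromosome 1 with chr1:91801211-91801460.
Snai1: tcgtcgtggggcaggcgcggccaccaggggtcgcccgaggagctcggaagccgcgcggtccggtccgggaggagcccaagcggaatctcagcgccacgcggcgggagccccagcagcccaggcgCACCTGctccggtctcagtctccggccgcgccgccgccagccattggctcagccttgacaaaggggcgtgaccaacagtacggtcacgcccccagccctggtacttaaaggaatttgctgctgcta
Twist1: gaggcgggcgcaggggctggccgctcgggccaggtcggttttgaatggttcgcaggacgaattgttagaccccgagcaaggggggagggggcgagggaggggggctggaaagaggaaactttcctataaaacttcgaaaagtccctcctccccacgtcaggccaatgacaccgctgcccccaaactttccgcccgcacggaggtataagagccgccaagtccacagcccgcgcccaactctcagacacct
Twist2: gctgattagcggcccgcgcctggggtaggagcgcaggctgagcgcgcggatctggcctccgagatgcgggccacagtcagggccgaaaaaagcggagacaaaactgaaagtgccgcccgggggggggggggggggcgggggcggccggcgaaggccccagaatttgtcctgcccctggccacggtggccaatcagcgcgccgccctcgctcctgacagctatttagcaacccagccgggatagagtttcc
Among 8 such windows of 5 members, CAGGTG was found in 1, that of *Snai1*, starting 126 bases before the start site and printed there as CACCTG. It was present in 17.2% of 32851 promoter windows of the same length. Of the 8 windows 4 belong to *Zeb2*, and 2 of these overlap. The general E-box CANNTG, which includes CAGGTG, was found in 1 window of the members, at the same *Snai1* site, and in 66.2% of all windows. These are letter matches and do not show binding.

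On GRCm38, *Snai1* spans chr2:167538195-167542814, *Snai2* chr16:14705852-14709385, *Twist1* chr12:33957671-33959829, and *Twist2* chr1:91801461-91848028, all on the plus strand, and *Zeb2* chr2:44983632-45117395 and *Prrx1* chr1:163245119-163313710 on the minus strand. *Zeb1* lies on chromosome 18. Antisense genes of the annotation that were not analysed here share 1477 exonic bases with *Twist2* (*Gm29100*) and 653 with *Zeb2* (*Zeb2os*). As the strand setting of the counting is not given, reads there cannot be told apart.

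All 7 factors were counted in every library. Kilobases of exon are the union of all annotated exons of a gene, which can be longer than the transcripts present. Levels, shares, and ratios compared between genes depend on that length. Per kilobase of exon, the mean level over the 8 lines was 51.4 CPM for *Snai1*, 45.5 for *Snai2*, and 44.0 for *Twist1*, against 15.7 for *Prrx1*, 11.2 for *Zeb1*, 3.37 for *Zeb2*, and 2.09 for *Twist2*. Between the highest and the lowest line the mean CPM differed 8.19-fold for *Snai1*, 7.02-fold for *Prrx1*, 6.39-fold for *Twist2*, 4.56-fold for *Twist1*, 3.28-fold for *Snai2*, 2.11-fold for *Zeb1*, and 2.07-fold for *Zeb2*. *Snai1*, *Prrx1*, and *Twist2* thus differed most between lines, and the Zeb genes least. Summed per kilobase over the 7 members, the level was highest in female p53 Y202C at 267 ± 11.2 CPM per kb (mean ± SD, n = 3) and lowest in male p53 Y217C at 89.3 ± 3.24, with 164 ± 6.48 in male and 181 ± 0.721 in female p53 KO. *Zeb1* made up 21.6% of that sum in male p53 Y217C and 5.59% in male p53 KO, while *Snai1* made up 10.0% in male p53 Y202C and 40.8% in female p53 Y202C.

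**Figure D1:**
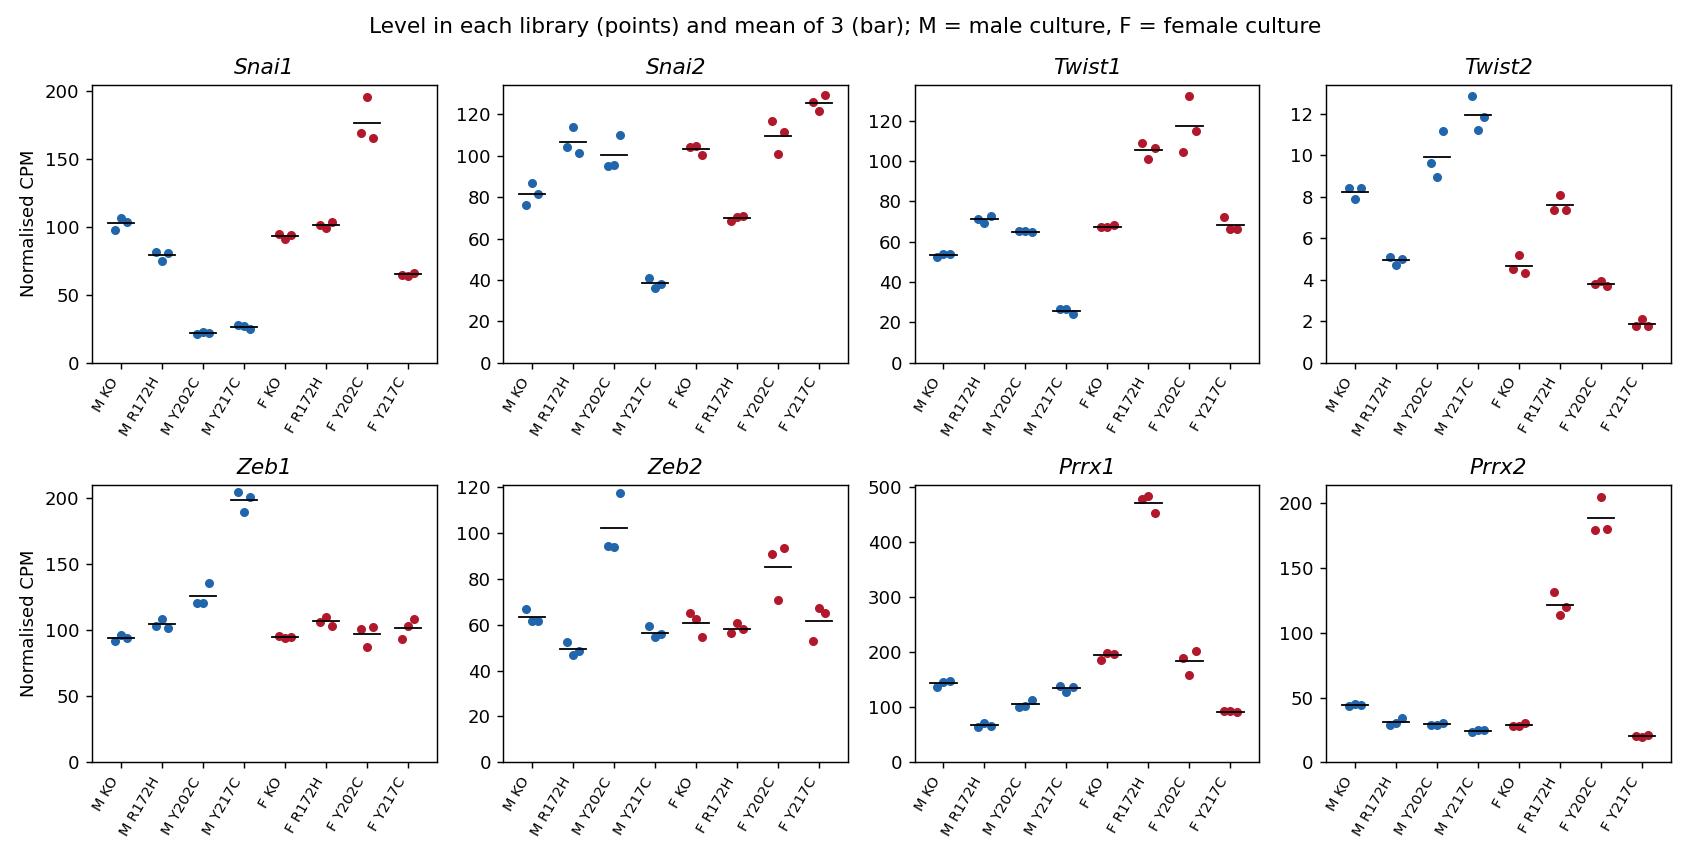
Normalised CPM of the 7 members and of *Prrx2* in each of the 24 libraries (points; blue, male; red, female) with the mean of 3 as a bar, on linear axes from 0. *Prrx1* reached 453 to 484 CPM in female p53 R172H and *Snai1* 20.8 to 22.5 CPM in male p53 Y202C, apart from every other line.

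To find which factors differed with each mutation, each mutant line was compared with the p53 KO line of its culture by edgeR's quasi-likelihood test with Benjamini-Hochberg adjustment over all 14427 genes at 0.05. A gene is said to have risen or fallen only where it passed that threshold, and errors of log2 fold changes are standard errors. A large part of all genes passed it, so counts of members are read against that share. In male p53 R172H, 2 of 7 members rose (*Snai2* and *Twist1*) and 4 fell (*Snai1*, *Twist2*, *Zeb2*, and *Prrx1*), where 20.2% of all genes rose and 20.5% fell. In male p53 Y202C, 5 rose (*Snai2*, both Twist genes, and both Zeb genes) and 2 fell (*Snai1* and *Prrx1*), where 37.6% of all genes rose and 35.4% fell. In male p53 Y217C, 2 rose (*Twist2* and *Zeb1*) and 3 fell (*Snai1*, *Snai2*, and *Twist1*), against 34.9% and 35.6% of all genes.

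In female p53 R172H, 4 members rose (both Twist genes, *Zeb1*, and *Prrx1*) and 1 fell (*Snai2*), where 34.4% of all genes rose and 35.3% fell. In female p53 Y202C, 3 rose (*Snai1*, *Twist1*, and *Zeb2*) and 1 fell (*Twist2*), where 34.3% of all genes rose and 34.3% fell. In female p53 Y217C, 1 rose (*Snai2*) and 3 fell (*Snai1*, *Twist2*, and *Prrx1*), against 28.0% and 28.7% of all genes. Across the 6 comparisons 31 of 42 member changes passed the threshold (73.8%), where 63.2% of the changes of all genes did, and in every one of the 6 some members rose while others fell. The median size of the members' log2 fold change was above that of all genes in male p53 R172H (0.38 and 0.19), male p53 Y217C (1.06 and 0.40), and female p53 R172H (0.56 and 0.39), close to it in female p53 Y217C (0.29 and 0.28), and below it in male p53 Y202C (0.41 and 0.46) and female p53 Y202C (0.30 and 0.38).

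**Figure D2:**
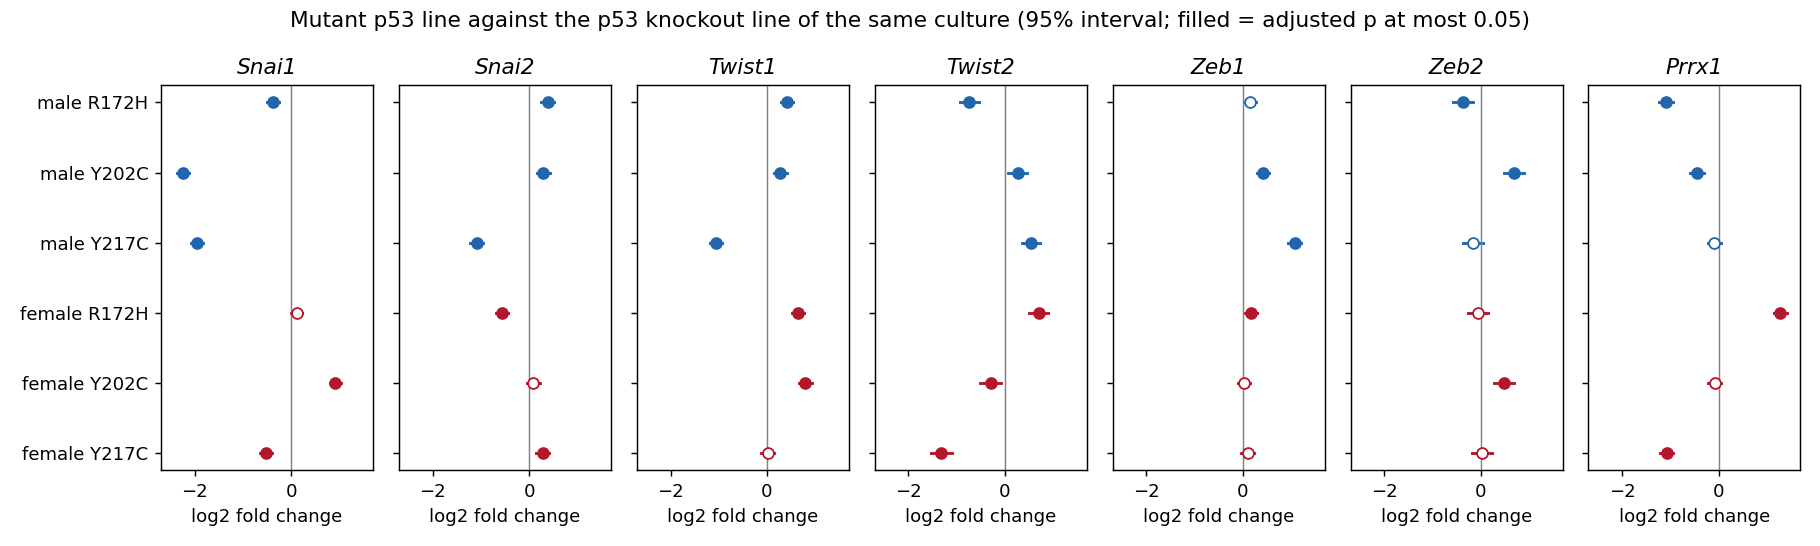
Log2 fold change of each member in each mutant line against the p53 KO line of its culture, with the 95% interval; filled points have an adjusted p of at most 0.05. *Snai1* lay below 0 in all 3 male lines, *Zeb1* was filled in 3 comparisons and right of 0 in each, and *Twist2* lay on both sides.

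Snail was the member with the widest range. *Snai1*, which encodes a short-lived repressor of *Cdh1*, was at 97.4, 106 and 104 CPM in male p53 KO, at 81.2, 75.2 and 81.0 CPM in male p53 R172H, at 20.8, 22.5 and 21.5 CPM in male p53 Y202C, and at 27.4, 27.3 and 25.1 CPM in male p53 Y217C. All mutant male libraries were below all male p53 KO libraries. The log2 fold change was -0.37 ± 0.06 for p53 R172H (adjusted p = 1.35e-05), -2.25 ± 0.06 for p53 Y202C (adjusted p = 1.27e-19), and -1.95 ± 0.06 for p53 Y217C (adjusted p = 9.78e-19). For p53 Y202C and p53 Y217C these are falls of 4.75-fold and 3.85-fold, and 5.43% and 8.72% of all genes changed at least as much in those comparisons.

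In the female culture *Snai1* was at 95.1, 91.2 and 94.3 CPM in p53 KO, at 101, 98.8 and 104 CPM in p53 R172H, at 169, 196 and 165 CPM in p53 Y202C, and at 64.9, 64.0 and 66.3 CPM in p53 Y217C. It rose 1.89-fold in p53 Y202C (log2 0.92 ± 0.06, adjusted p = 1.22e-12) and fell 1.44-fold in p53 Y217C (log2 -0.52 ± 0.06, adjusted p = 4.4e-08). In p53 R172H the log2 difference was 0.12 ± 0.06, with a 95% interval of -0.0019 to 0.23 and an adjusted p of 0.0739. That value passed the threshold in 5 of the alternative analyses, with an edgeR, limma, or DESeq2 adjusted p between 0.0119 and 0.0403 there. Female p53 Y202C was thus the line with the most *Snai1* and male p53 Y202C the line with the least, with the other 6 lines in between. In the order of the 8 lines, only male p53 KO and female p53 R172H overlapped as neighbours.

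*Snai2*, the Slug gene of neural crest and mesenchyme, did not follow *Snai1*. It was at 76.2, 87.1 and 81.5 CPM in male p53 KO, at 104, 114 and 101 CPM in p53 R172H, at 95.1, 95.4 and 110.1 CPM in p53 Y202C, and at 40.8, 36.2 and 38.1 CPM in p53 Y217C. The p53 R172H and p53 Y202C libraries lay above all male p53 KO libraries and the p53 Y217C libraries below them. The rise was 1.30-fold in p53 R172H (log2 0.38 ± 0.06, adjusted p = 4.96e-05) and 1.23-fold in p53 Y202C (log2 0.30 ± 0.06, adjusted p = 0.000261), and the fall in p53 Y217C was 2.13-fold (log2 -1.09 ± 0.07, adjusted p = 4.22e-13).

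Female p53 KO held *Snai2* at 104, 105 and 100.5 CPM, p53 R172H at 68.4, 70.4 and 70.8 CPM, p53 Y202C at 117, 101 and 112 CPM, and p53 Y217C at 126, 122 and 129.6 CPM. The p53 R172H libraries were the low ones, with a log2 change of -0.56 ± 0.06 (adjusted p = 4.87e-08), and the p53 Y217C libraries were high, with 0.29 ± 0.06 (adjusted p = 0.000623). In p53 Y202C the difference was 0.089 ± 0.06 with a 95% interval of -0.045 to 0.22 (adjusted p = 0.228), and limma's test put it past the threshold at 0.13, adjusted p = 0.0299. By mean level, 4 lines from female p53 Y202C down to male p53 Y202C overlapped one another as neighbours, and male p53 Y217C stood alone at the bottom.

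Within a library and per kilobase of exon, the ratio of *Snai1* to *Snai2* was 1.57 ± 0.0387 (SD, n = 3) in male p53 KO and 0.270 ± 0.0256 in male p53 Y202C, where Slug was the more abundant transcript. In the female culture it was 1.13 ± 0.0433 in the p53 KO line, 1.81 ± 0.0506 with p53 R172H, 2.03 ± 0.345 with p53 Y202C, and 0.645 ± 0.00983 with p53 Y217C. Male p53 R172H had 0.931 ± 0.0933 and male p53 Y217C 0.866 ± 0.0633. In male p53 Y217C both genes fell, while in male p53 Y202C *Snai1* fell and *Snai2* rose.

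The Twist genes encode related basic helix-loop-helix factors. *Twist1* was at 52.5, 53.9 and 54.0 CPM in male p53 KO, at 71.1, 69.5 and 72.6 CPM in p53 R172H, at 65.1, 65.1 and 64.6 CPM in p53 Y202C, and at 26.7, 26.4 and 24.02 CPM in p53 Y217C. It rose in the first 2 mutants, by 1.33-fold (log2 0.41 ± 0.06, adjusted p = 1.1e-05) and 1.21-fold (log2 0.28 ± 0.06, adjusted p = 0.000286), and fell 2.08-fold in p53 Y217C (log2 -1.06 ± 0.06, adjusted p = 3.01e-13). None of these groups overlapped male p53 KO.

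In the female culture *Twist1* was at 67.2, 67.3 and 68.0 CPM in p53 KO, at 109, 101 and 107 CPM in p53 R172H, at 105, 132 and 115 CPM in p53 Y202C, and at 72.0, 66.1 and 66.1 CPM in p53 Y217C. It rose 1.56-fold in p53 R172H (log2 0.64 ± 0.06, adjusted p = 1.82e-09) and 1.74-fold in p53 Y202C (log2 0.80 ± 0.06, adjusted p = 5.72e-11). The p53 Y217C libraries overlapped those of p53 KO, with a log2 difference of 0.013 ± 0.06, a 95% interval of -0.11 to 0.14, and an adjusted p of 0.873. *Twist1* therefore rose in 4 of the 6 comparisons and fell in 1.

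*Twist2* had the lowest mean CPM of the members, and the lowest per kilobase of annotated exon, and showed another order of lines. Its counts ran from 118 to 1109 per library. It was at 8.40, 7.87 and 8.45 CPM in male p53 KO, at 5.09, 4.73 and 5.01 CPM in p53 R172H, at 9.64, 8.95 and 11.2 CPM in p53 Y202C, and at 12.8, 11.2 and 11.9 CPM in p53 Y217C. It fell 1.67-fold in p53 R172H (log2 -0.74 ± 0.10, adjusted p = 1.6e-06) and rose 1.45-fold in p53 Y217C (log2 0.54 ± 0.09, adjusted p = 1.88e-05). In p53 Y202C it rose by log2 0.27 ± 0.09, adjusted p = 0.0137, and without replicate 3 of that line the call was lost (log2 0.18, adjusted p = 0.113), as it was without replicate 2 of male p53 KO (log2 0.23, adjusted p = 0.0569) and in a fit of the compared lines alone (log2 0.24, adjusted p = 0.0529).

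Female p53 KO held *Twist2* at 4.51, 5.17 and 4.35 CPM, p53 R172H at 7.34, 8.08 and 7.35 CPM, p53 Y202C at 3.77, 3.92 and 3.71 CPM, and p53 Y217C at 1.77, 2.10 and 1.74 CPM. The p53 R172H libraries were above p53 KO (log2 0.70 ± 0.10, adjusted p = 7.06e-07) and the p53 Y217C libraries were 2.49-fold below (log2 -1.32 ± 0.11, adjusted p = 2.74e-10). A smaller fall in p53 Y202C (log2 -0.30 ± 0.10, adjusted p = 0.0122) was lost without replicate 3 of that line (log2 -0.26, adjusted p = 0.0585) or replicate 2 of female p53 KO (log2 -0.22, adjusted p = 0.0798), and in a fit of the compared lines alone (log2 -0.28, adjusted p = 0.0584). Per kilobase the ratio of *Twist1* to *Twist2* was 12.7 ± 0.606 (SD, n = 3) in male p53 KO and 4.202 ± 0.348 in male p53 Y217C. In the female culture it was 28.3 ± 2.67 in p53 KO and 71.5 ± 9.06 in p53 Y217C, so the 2 p53 Y217C lines were the lowest and the highest of the 8.

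Of the Zeb genes, *Zeb1* was nearly level across 6 lines and high in 2. It was at 91.9, 96.6 and 94.1 CPM in male p53 KO, at 103, 109 and 102 CPM in p53 R172H, at 121, 121 and 135 CPM in p53 Y202C, and at 204, 189.6 and 201 CPM in p53 Y217C. The p53 Y217C libraries held more than all other libraries of the study, a rise of 2.11-fold (log2 1.07 ± 0.06, adjusted p = 1.44e-13), and p53 Y202C rose 1.33-fold (log2 0.41 ± 0.06, adjusted p = 1.89e-06). In male p53 R172H the difference of log2 0.15 ± 0.06 missed the threshold (adjusted p = 0.0508) with a 95% interval of 0.025 to 0.28, and passed it under limma, DESeq2, and a fit of the compared lines alone.

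Female *Zeb1* was at 95.5, 93.8 and 94.95 CPM in p53 KO, 107, 110.2 and 104 CPM in p53 R172H, 101, 87.0 and 103 CPM in p53 Y202C, and 93.3, 103 and 108 CPM in p53 Y217C. Only p53 R172H passed the threshold, with log2 0.17 ± 0.06, adjusted p = 0.0156, and not without its replicate 2 (log2 0.15, adjusted p = 0.0614). For p53 Y202C and p53 Y217C the 95% intervals were -0.10 to 0.16 and -0.028 to 0.23, and limma's test put the latter past the threshold (log2 0.13, adjusted p = 0.00571), as did edgeR's without replicate 1 of that line (log2 0.16, adjusted p = 0.045). *Gm10125*, a transcript on the opposite strand that shares 198 exonic bases with *Zeb1*, was at 0.532 to 3.79 CPM. It was highest in male p53 Y217C as well, at 3.79, 2.76 and 2.89 CPM, and without strand information reads in the shared bases cannot be assigned to one gene.

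*Zeb2* was highest with p53 Y202C in both cultures. It was at 66.7, 61.8 and 61.7 CPM in male p53 KO, 52.4, 46.9 and 48.4 CPM in p53 R172H, 94.5, 93.9 and 118 CPM in p53 Y202C, and 59.5, 54.5 and 55.8 CPM in p53 Y217C. In females it was at 65.3, 62.6 and 54.8 CPM in p53 KO, 56.3, 60.6 and 58.1 CPM in p53 R172H, 90.9, 71.0 and 93.6 CPM in p53 Y202C, and 52.8, 67.5 and 64.9 CPM in p53 Y217C. The p53 Y202C libraries were the high ones, with a rise of 1.61-fold in males (log2 0.69 ± 0.10, adjusted p = 1.35e-06) and 1.399-fold in females (log2 0.48 ± 0.10, adjusted p = 0.000158). Male p53 R172H fell 1.29-fold (log2 -0.36 ± 0.10, adjusted p = 0.00538). The 95% interval was -0.37 to 0.043 in male p53 Y217C, which passed only in a fit of the compared lines (log2 -0.15, adjusted p = 0.0202), -0.27 to 0.14 in female p53 R172H, and -0.19 to 0.23 in female p53 Y217C. Among the 7 members *Zeb2* was the only one for which none of the 3 differences between cultures passed the threshold, with values given below. The ratio of *Zeb1* to *Zeb2* per kilobase ran from 2.22 ± 0.137 (SD, n = 3) in female p53 Y202C to 6.81 ± 0.178 in male p53 Y217C, so *Zeb1* was the more abundant of the pair in every line.

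*Prrx1*, a homeobox gene of limb and craniofacial mesenchyme, had its highest level in 1 line. It was at 187, 199 and 197 CPM in female p53 KO, 479, 484 and 453 CPM in p53 R172H, 189, 159.7 and 201.97 CPM in p53 Y202C, and 93.3, 92.6 and 91.0 CPM in p53 Y217C. The p53 R172H libraries were above all others, a rise of 2.43-fold (log2 1.28 ± 0.07, adjusted p = 2.51e-14), and p53 Y217C fell 2.11-fold (log2 -1.07 ± 0.07, adjusted p = 2.77e-12). The p53 Y202C libraries overlapped p53 KO (log2 -0.082 ± 0.07, 95% interval -0.22 to 0.054, adjusted p = 0.277).

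In the male culture *Prrx1* was at 137, 146 and 147 CPM in p53 KO, 64.9, 70.6 and 66.2 CPM in p53 R172H, 100.4, 102 and 114 CPM in p53 Y202C, and 139, 128 and 137 CPM in p53 Y217C. Here p53 R172H was the low line, with a fall of 2.13-fold (log2 -1.09 ± 0.07, adjusted p = 5.24e-12), a size that 5.22% of all genes reached in that comparison. p53 Y202C fell 1.36-fold (log2 -0.45 ± 0.07, adjusted p = 1.85e-06), and p53 Y217C overlapped p53 KO (log2 -0.089 ± 0.07, 95% interval -0.23 to 0.047, adjusted p = 0.23). The highest and the lowest of the 8 lines thus carried the same mutation.

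The paralog *Prrx2* was counted and is given beside *Prrx1*, although it is not one of the 7. It was at 28.2, 28.3 and 30.6 CPM in female p53 KO, 132, 113 and 120.1 CPM in p53 R172H, 179.6, 205 and 180.2 CPM in p53 Y202C, and 20.6, 19.8 and 21.1 CPM in p53 Y217C. It rose 4.19-fold in p53 R172H (log2 2.07 ± 0.07, adjusted p = 2.75e-18) and 6.48-fold in p53 Y202C (log2 2.70 ± 0.07, adjusted p = 5.77e-20), the latter without a rise of *Prrx1*. In the male culture it fell in all 3 mutants, with log2 values of -0.51 ± 0.06, -0.58 ± 0.06, and -0.85 ± 0.06 for R172H, Y202C, and Y217C in turn (adjusted p = 1.09e-06, 1.93e-08, and 3.08e-11). Per kilobase the ratio of *Prrx1* to *Prrx2* was 1.19 ± 0.0562 (SD, n = 3) in the female p53 KO line, 0.690 ± 0.0585 with p53 R172H and 0.175 ± 0.0322 with p53 Y202C in that culture, against 0.574 ± 0.0138 in male p53 KO.

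**Figure D3:**
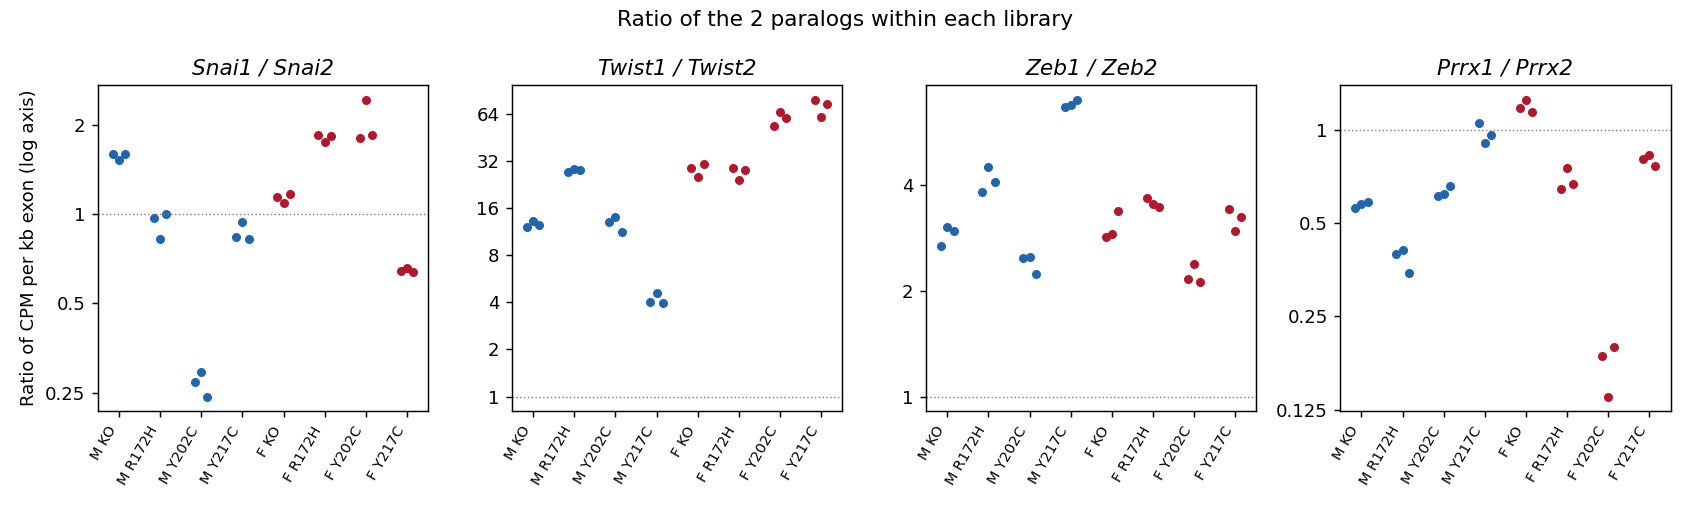
Ratio of CPM per kilobase of exon between the genes of each pair in each library (points; blue, male; red, female) on a log axis, with the dotted line at equal levels. *Snai1* to *Snai2* was lowest in male p53 Y202C at 0.270 ± 0.0256 (SD, n = 3), and *Twist1* to *Twist2* lowest in male p53 Y217C at 4.202 ± 0.348.

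To learn whether the mutant lines differed alike from p53 KO in both cultures, the difference between the effect in males and the effect in females was tested for each mutation. The level of *Trp53* also differed between the cultures for the same mutation, and the test does not adjust for it. For p53 R172H, 5 of 7 members differed between the cultures, where 58.0% of all genes did. *Prrx1* rose in females and fell in males, a difference (male minus female) of log2 -2.37 ± 0.09, adjusted p = 3.63e-16. *Twist2* did the same, with log2 -1.44 ± 0.14, adjusted p = 3.12e-09, and *Snai2* went the other way, with log2 0.94 ± 0.09, adjusted p = 4.89e-09. The difference was log2 -0.49 ± 0.08, adjusted p = 1.47e-05 for *Snai1*. *Twist1* rose in both cultures, with a difference of log2 -0.23 ± 0.09, adjusted p = 0.0237 that did not pass without replicate 1 of female p53 R172H (log2 -0.21, adjusted p = 0.0585) or replicate 2 of male p53 R172H (log2 -0.22, adjusted p = 0.0512). *Zeb1* and *Zeb2* did not pass, at log2 -0.02 ± 0.09 (95% interval -0.20 to 0.16) and -0.30 ± 0.14 (95% interval -0.59 to -0.011, adjusted p = 0.07), and *Zeb2* passed under 4 of the other analyses and without replicate 1 of female p53 KO (log2 -0.36, adjusted p = 0.0493).

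For p53 Y202C, 6 of 7 members differed, where 68.0% of all genes did. The difference of *Snai1* was the largest of any member, log2 -3.17 ± 0.08, adjusted p = 1.32e-19, an 8.98-fold difference between the effects, and 5.25% of all genes had one at least as large. *Twist1* was log2 -0.52 ± 0.09, adjusted p = 1.19e-05, *Twist2* 0.56 ± 0.14, adjusted p = 0.000917, *Zeb1* 0.38 ± 0.09, adjusted p = 0.000462, and *Prrx1* -0.36 ± 0.09, adjusted p = 0.00139. *Snai2* was only just past the threshold (log2 0.21 ± 0.09, adjusted p = 0.0491), and the call was lost in 13 of the alternative analyses, with adjusted p over the alternatives from 0.0217 to 0.294. It was lost without replicate 2 or 3 of female p53 Y202C, replicate 3 of male p53 Y202C, replicate 1 or 2 of female p53 KO, or replicate 1 or 3 of male p53 KO, and with the replicate number as a block (log2 0.21, adjusted p = 0.0622). *Zeb2* rose in both cultures, with a difference of log2 0.20 ± 0.14 (95% interval -0.09 to 0.49, adjusted p = 0.212).

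For p53 Y217C, 6 of 7 members differed, where 54.8% of all genes did. *Twist2* rose in males and fell in females, with log2 1.86 ± 0.14, adjusted p = 5.79e-11. *Snai1* fell further in males, with log2 -1.42 ± 0.08, adjusted p = 3.06e-13, and *Snai2*, which rose in females, differed by log2 -1.37 ± 0.09, adjusted p = 5.95e-12. *Twist1* and *Zeb1* changed in males and not past the threshold in females, with differences of log2 -1.07 ± 0.09, adjusted p = 2.38e-10 and 0.97 ± 0.09, adjusted p = 1.02e-09. *Prrx1* fell in females and differed by log2 0.98 ± 0.09, adjusted p = 2.97e-09. The difference of *Zeb2* was log2 -0.18 ± 0.14 (95% interval -0.47 to 0.11, adjusted p = 0.288), and limma's test put it past the threshold (log2 -0.23, adjusted p = 0.0383).

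**Figure D4:**
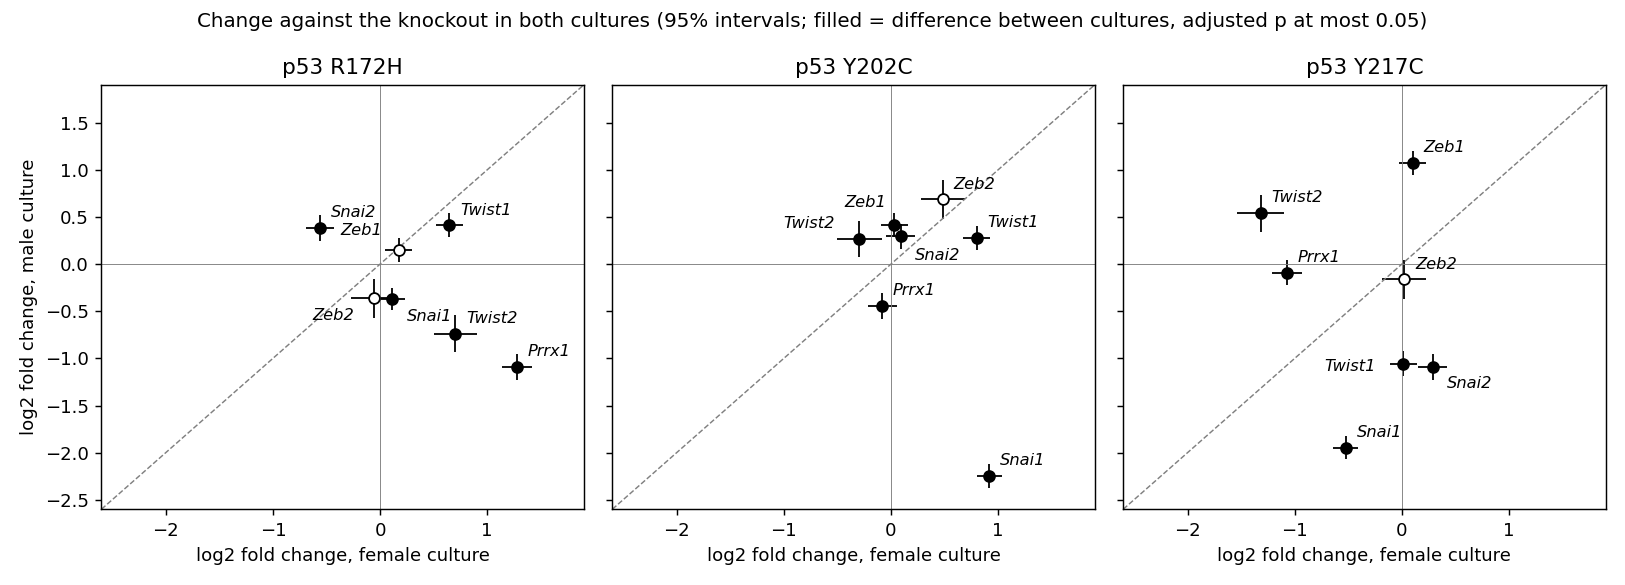
Log2 fold change against p53 KO in the female culture (horizontal) and the male culture (vertical) for each member, 1 panel per mutation, with 95% intervals; filled points differ between cultures at an adjusted p of at most 0.05. Points off the dashed line of equal change include *Snai1* for p53 Y202C, with a difference of -3.17, and *Prrx1* for p53 R172H, with -2.37.

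The p53 KO lines themselves differed in 4 of 7 members, where 31.1% of all genes did. Male p53 KO held more *Twist2* than female p53 KO (log2 0.82 ± 0.10, adjusted p = 3.5e-07) and less *Prrx1* (log2 -0.44 ± 0.07, adjusted p = 1.24e-05), *Snai2* (log2 -0.34 ± 0.06, adjusted p = 0.000262), and *Twist1* (log2 -0.34 ± 0.06, adjusted p = 0.000159). *Zeb1* and *Zeb2* overlapped, with 95% intervals of -0.13 to 0.12 and -0.15 to 0.26. *Snai1* was log2 0.13 ± 0.06 higher in males with an adjusted p of 0.0798, and passed under limma, a stricter filter, a fit of the compared lines alone, and without replicate 1 of male p53 KO (log2 0.17, adjusted p = 0.0442). The baseline contrast was smaller for each member than the largest of its 6 changes with a mutation, which sets 1 contrast against the largest of several. For *Twist2* the baseline contrast exceeded the size of every change with a mutation except the fall in female p53 Y217C.

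Genes that work with or under these factors were followed as fixed lists, and counts are read against the shares of all genes that passed in the same comparison. Of 40 mesenchymal effector genes (matrix, cytoskeleton, and adhesion genes such as *Col1a1* and *Fn1*) 39 were tested. In female p53 R172H 26 rose and 11 fell, with a median log2 fold change of 0.43 beside -0.0096 over all genes, of which 34.4% rose and 35.3% fell. In female p53 Y202C 18 rose and 15 fell with a median of 0.039, where 34.3% of all genes rose and 34.3% fell. In male p53 Y202C 9 rose and 22 fell (median -0.44), and in male p53 Y217C 12 rose and 22 fell (median -0.33), beside medians over all genes of 0.012 and 0.00025. The shares of all genes that rose and fell were 37.6% and 35.4% in the former and 34.9% and 35.6% in the latter. In male p53 R172H 12 rose and 13 fell (median -0.0027), and in female p53 Y217C 11 rose and 18 fell (median -0.17), where the shares of all genes were 20.2% and 20.5%, and 28.0% and 28.7%. Several effector genes are also fibroblast or meningeal markers. Of 15 such markers 10 rose and 3 fell in female p53 R172H, 12 rose and 2 fell in female p53 Y202C, and 9 rose and 2 fell in female p53 Y217C (median log2 0.71, 1.27, and 0.51). In the male culture 1 rose and 4 fell with p53 R172H, 3 rose and 9 fell with p53 Y202C, and 5 rose and 8 fell with p53 Y217C (median log2 -0.064, -0.98, and -1.11).

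Of 11 astrocyte markers 8 rose and 0 fell in male p53 Y217C (median log2 2.54), where 34.9% of all genes rose and 35.6% fell. Of these markers 5 were under 1 CPM in all 3 male p53 KO libraries, and 0 in those of male p53 Y217C. The authors kept genes by a minimum of 1 CPM, and *Gfap* passed it in male p53 Y217C alone. A marker kept through that line alone could only rise there, so this count and median are partly fixed by the filter. In male p53 R172H 0 rose and 7 fell (median -0.66), against 20.2% and 20.5% of all genes. In male p53 Y202C 3 rose and 8 fell (median -0.88), against 37.6% and 35.4%. In the female culture 3 rose and 4 fell with p53 R172H, 5 rose and 2 fell with p53 Y202C, and 0 rose and 6 fell with p53 Y217C (median log2 -0.36, 0.59, and -0.63). Of all genes 34.4% and 35.3%, 34.3% and 34.3%, and 28.0% and 28.7% rose and fell, in the same order. The part of these markers in the members' differences was not tested.

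Single effectors did not move as a block. *Col1a1*, the main fibrillar collagen chain, was at 12722, 13573 and 13624 CPM in female p53 KO, 24023, 20434 and 20870 CPM in female p53 R172H, 15819, 17160 and 18903 CPM in male p53 KO, and 3759, 3258 and 3067 CPM in male p53 Y202C. It rose in female p53 R172H (log2 0.71 ± 0.08, adjusted p = 1.81e-08) and fell in male p53 Y202C (log2 -2.36 ± 0.08, adjusted p = 8.76e-18). A smaller fall was seen in male p53 Y217C (log2 -0.34 ± 0.08, adjusted p = 0.000402), and its mean in female p53 Y202C was 18993 CPM. *Fn1* fell in male p53 Y202C (log2 -0.58 ± 0.05, adjusted p = 1.02e-09) and male p53 Y217C (log2 -0.79 ± 0.05, adjusted p = 4.92e-12). It rose slightly in female p53 R172H (log2 0.12 ± 0.05, adjusted p = 0.0451), and its mean was 7136 CPM in female p53 Y217C against 11514 CPM in female p53 KO. *Cdh2*, the N-cadherin gene, fell in female p53 R172H (log2 -1.35 ± 0.08, adjusted p = 1.18e-13) and female p53 Y202C (log2 -1.28 ± 0.08, adjusted p = 4.79e-13). It also fell by smaller amounts in female p53 Y217C (log2 -0.44 ± 0.07, adjusted p = 2.48e-05), male p53 R172H (log2 -0.31 ± 0.07, adjusted p = 0.00177), and male p53 Y202C (log2 -0.21 ± 0.07, adjusted p = 0.0157), and rose in male p53 Y217C (log2 0.28 ± 0.07, adjusted p = 0.00166). *Vim*, an intermediate filament gene, stayed between 3255 and 5126 CPM in all libraries and differed 1.43-fold between the highest and the lowest line.

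Of 40 epithelial genes 20 were in the table and tested. *Cdh1*, the classical target of Snail and ZEB1, was a rare transcript at 2 to 324 counts per library. It was at 0.0785, 0.0512 and 0.0193 CPM in female p53 KO and 2.98, 2.20 and 2.47 CPM in female p53 R172H, at 0.989, 1.17 and 1.96 CPM in female p53 Y202C, and at 0.129, 0.0889 and 0.0443 CPM in female p53 Y217C. The male values were 0.157, 0.238 and 0.312 CPM in p53 KO, 0.136, 0.397 and 0.293 CPM in p53 R172H, 0.420, 0.813 and 0.625 CPM in p53 Y202C, and 1.43, 1.05 and 1.701 CPM in p53 Y217C. It rose in female p53 R172H (log2 5.65 ± 0.45, adjusted p = 8.8e-11, 95% interval 4.71 to 6.58), female p53 Y202C (log2 4.77 ± 0.47, adjusted p = 3.79e-09, 95% interval 3.80 to 5.74), male p53 Y202C (log2 1.33 ± 0.38, adjusted p = 0.00286), and male p53 Y217C (log2 2.52 ± 0.36, adjusted p = 1.13e-06). In both of these male lines *Snai1* fell and *Zeb1* rose. In female p53 Y202C *Snai1* rose and *Zeb1* did not pass, and in female p53 R172H *Zeb1* rose and *Snai1* did not pass. *Cdh1* was above 1 CPM only in libraries of female p53 R172H, female p53 Y202C, and male p53 Y217C. The authors kept genes by a minimum of 1 CPM, so *Cdh1* is in the table through those lines. Its rises there are partly fixed by that filter, and a link to the members was not tested. Over the list, *Cdh1* included, 5 were higher and 11 lower in male p53 Y202C, 6 higher and 11 lower in male p53 Y217C, 9 higher and 7 lower in female p53 R172H, and 8 of each in female p53 Y202C. In male p53 R172H 5 rose and 1 fell, and in female p53 Y217C 5 rose and 4 fell. Of all genes 37.6% rose and 35.4% fell in male p53 Y202C, 34.9% and 35.6% in male p53 Y217C, and between 20.2% and 35.3% in each direction in the other 4 comparisons.

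All 7 E protein and Id genes were tested. E proteins are the dimer partners of the Twist factors, and Id proteins sequester them. *Tcf4* rose in female p53 R172H (log2 0.80 ± 0.08, adjusted p = 7.59e-09), where both Twist genes rose, while *Tcf3* fell there (log2 -0.52 ± 0.06, adjusted p = 1.63e-08) and *Tcf12* did not pass (log2 -0.052 ± 0.05, 95% interval -0.16 to 0.057). *Tcf4* also rose in male p53 Y217C (log2 0.52 ± 0.08, adjusted p = 5.37e-06), where *Twist1* fell and *Twist2* rose. It rose less in male p53 Y202C (log2 0.23 ± 0.08, adjusted p = 0.0155), where both Twist genes rose. In male p53 R172H, where *Twist1* rose and *Twist2* fell, *Tcf4* did not pass (log2 0.18 ± 0.08, adjusted p = 0.0935). *Id1*, a BMP response gene, was at 28.8 to 32.7 CPM in female p53 KO and 8.25 to 9.13 CPM in female p53 Y217C, a fall of 3.57-fold (log2 -1.83 ± 0.12, adjusted p = 6.39e-12). In male p53 Y217C it rose (log2 0.57 ± 0.11, adjusted p = 7.71e-05). Over the list, 5 rose and 1 fell in female p53 R172H, 1 rose and 5 fell in female p53 Y217C, and the other 4 comparisons had between 2 and 4 higher and 3 lower, where 34.4% and 35.3% of all genes rose and fell in female p53 R172H and 28.0% and 28.7% in female p53 Y217C. In the other 4, the shares were 20.2% and 20.5% in male p53 R172H and 37.6% and 35.4% in male p53 Y202C. They were 34.9% and 35.6% in male p53 Y217C and 34.3% and 34.3% in female p53 Y202C.

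Among 26 corepressors and chromatin partners, which the zinc finger factors recruit, there were more falls than rises in 5 of the 6 comparisons, while among all genes about as many rose as fell. In female p53 Y202C 4 rose and 20 fell (median log2 -0.33), in female p53 R172H 3 rose and 18 fell (median -0.32), and in male p53 Y217C 4 rose and 17 fell (median -0.23), where 34.3%, 35.3%, and 35.6% of all genes fell. Female p53 Y217C had 4 rises and 13 falls, male p53 Y202C 10 and 13, and male p53 R172H 5 of each, where 28.7%, 35.4%, and 20.5% of all genes fell. *Kdm1a*, a histone demethylase bound by Snail, fell in female p53 Y202C (log2 -0.78 ± 0.05, adjusted p = 4.86e-13) and rose in male p53 Y202C (log2 0.28 ± 0.05, adjusted p = 6.9e-06). *Ezh2*, the methyltransferase of Polycomb, fell in male p53 Y202C (log2 -0.96 ± 0.07, adjusted p = 1.3e-11), and *Ctbp2*, a corepressor bound by the ZEB factors, rose there (log2 0.27 ± 0.05, adjusted p = 4.38e-05). Falls in female p53 R172H were seen for *Kdm1a* (log2 -0.32 ± 0.05, adjusted p = 1.42e-06), *Ezh2* (log2 -0.66 ± 0.07, adjusted p = 1.17e-08), and *Ctbp2* (log2 -0.37 ± 0.05, adjusted p = 5.17e-07). *Ctbp2* also fell in male p53 Y217C (log2 -0.32 ± 0.05, adjusted p = 5.12e-06).

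Of 26 genes that control the stability of these proteins, such as ubiquitin ligases and kinases, 25 were tested. In male p53 Y202C 15 rose and 6 fell (median log2 0.22), and in female p53 R172H and p53 Y202C 17 and 15 fell while 5 rose in each (medians -0.26 and -0.20). Of all genes 37.6% rose and 35.4% fell in male p53 Y202C, and 35.3% and 34.3% fell in these female lines. Male p53 R172H had 8 rises and 3 falls, male p53 Y217C 6 and 12, and female p53 Y217C 4 and 9, where the shares of all genes were 20.2% and 20.5%, 34.9% and 35.6%, and 28.0% and 28.7%. Transcript levels do not give the levels of the factors as proteins, which were not measured in these libraries.

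Of 40 other transcription factors linked to the mesenchymal state 37 were tested, with 9 higher and 7 lower in male p53 R172H, 15 and 18 in male p53 Y202C, 10 and 20 in male p53 Y217C, 11 and 21 in female p53 R172H, 15 and 15 in female p53 Y202C, and 9 and 18 in female p53 Y217C. Of all genes, in the same order, 20.2% and 20.5%, 37.6% and 35.4%, 34.9% and 35.6%, 34.4% and 35.3%, 34.3% and 34.3%, and 28.0% and 28.7% rose and fell. *Stat3*, *Cebpb*, and *Runx1* are known as regulators of mesenchymal gene expression in glioma. *Stat3* and *Runx1* fell in male p53 Y217C (log2 -1.08 ± 0.05, adjusted p = 3.71e-15 and -1.27 ± 0.07, adjusted p = 2.29e-13), where *Snai1*, *Snai2*, and *Twist1* fell and *Zeb1* rose. *Stat3* also fell in male p53 R172H (log2 -0.16 ± 0.05, adjusted p = 0.0124) and male p53 Y202C (log2 -0.57 ± 0.05, adjusted p = 4.75e-10), where *Snai2* and *Twist1* rose. Its mean was 255, 273, and 161 CPM in female p53 R172H, p53 Y202C, and p53 Y217C, against 184 CPM in female p53 KO. *Runx1* rose in male p53 R172H (log2 0.19 ± 0.07, adjusted p = 0.0448). Its mean was 58.7 CPM in female p53 R172H and 113 CPM in female p53 Y217C, against 81.2 CPM in female p53 KO. *Cebpb* rose in female p53 R172H (log2 0.99 ± 0.12, adjusted p = 5.65e-08), female p53 Y202C (log2 0.92 ± 0.12, adjusted p = 2.3e-07), and male p53 Y202C (log2 0.81 ± 0.12, adjusted p = 1.11e-06), and in male p53 Y217C its difference was log2 -0.24 ± 0.12 (95% interval -0.48 to 0.0017).

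**Figure D5:**
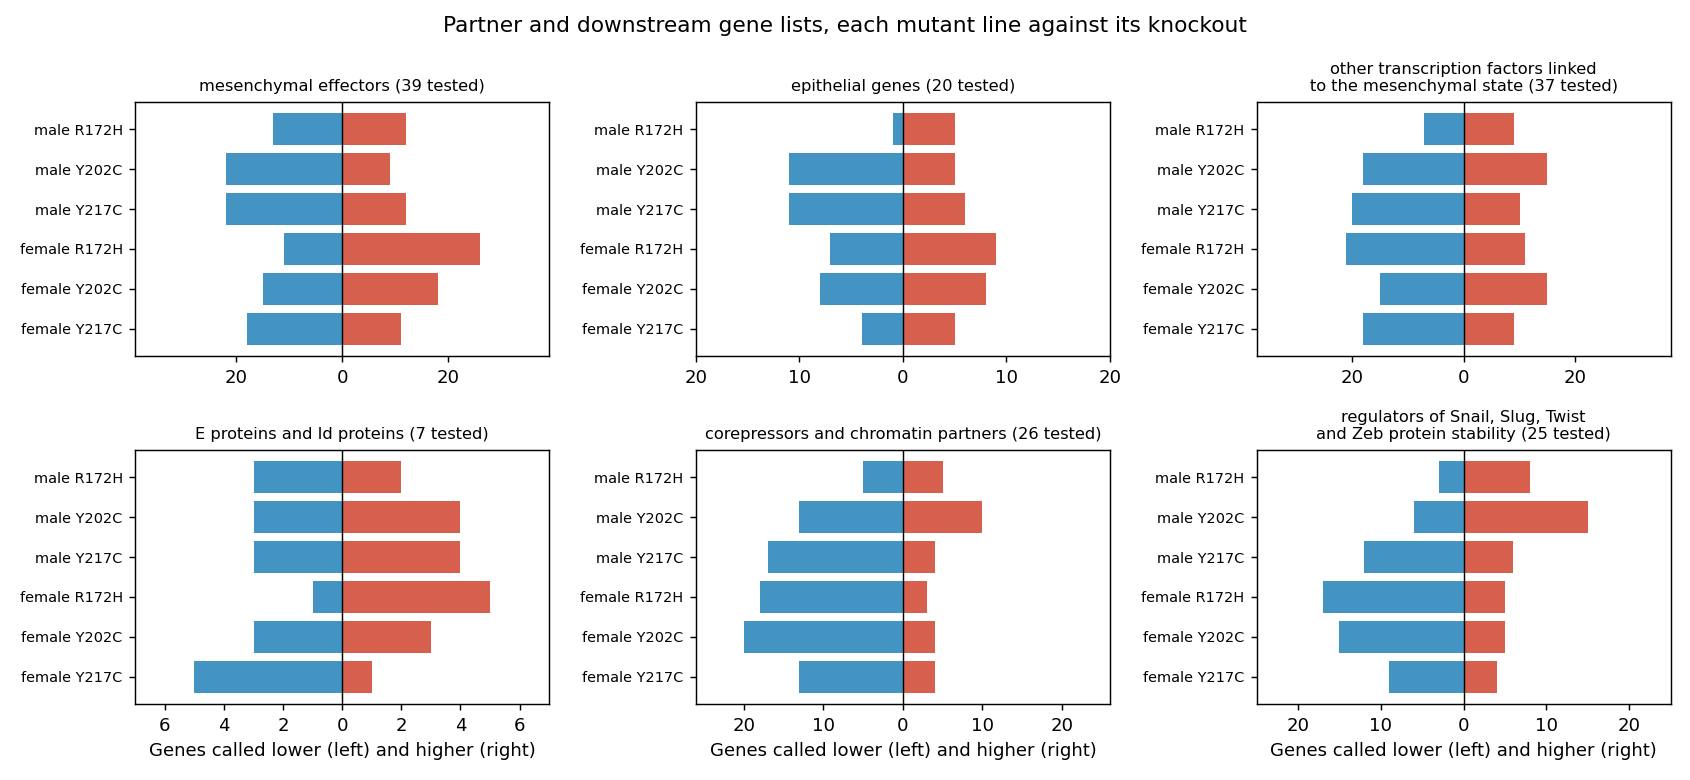
Number of genes that passed the threshold as lower (left, blue) or higher (right, red) in each mutant line against its p53 KO line, for 6 lists of partner and downstream genes; each axis runs to the number tested. Mesenchymal effectors gave 26 higher and 11 lower in female p53 R172H and 9 higher and 22 lower in male p53 Y202C.

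For each member the 3 genes with the most similar pattern were taken by Pearson's r of log2 CPM over the 24 libraries, as a description. The libraries of a line share its culture and are not independent. *Arhgap31* (r = 0.977), *Samd5* (0.972), and *Dera* (0.970) were closest to *Snai1*, and *Arhgef5* (0.981), *Jdp2* (0.978), and *Zfp760* (0.961) to *Snai2*. *Twist1* was closest to *1600014C10Rik* (0.9746), *Arap1* (0.963), and *Stat5a* (0.961), and *Twist2* to *Epb41l4a* (0.948), *Hist1h1c* (0.945), and *Prdm16* (0.937). *Zeb1* was closest to *Coro2b* (0.966), *Pex5l* (0.953), and *Syt11* (0.952), *Zeb2* to *Selenot* (0.938), *Cops2* (0.930), and *Slu7* (0.918), and *Prrx1* to *Fut11* (0.977), *Oas1c* (0.955), and *Parp2* (0.944). No member was among the 3 closest genes of another. Over the 8 line means of log2 CPM, the highest r between members was 0.69, for *Snai2* with *Twist1*, and the lowest was -0.82, for *Snai2* with *Zeb1*.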

How the data were processed

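RNA-seq reads had been aligned by the authors with STAR, given in the submitters' processing notes as version 2.5.1a, to an Ensembl mouse primary assembly and counted per gene with featureCounts; the strand setting is not given in the sources used here. The authors deposited raw read counts, without normalization, for 14427 genes. Libraries were grouped by their labels, with replicate numbers from the titles. Gene symbols, positions, and exon lengths were taken by identifier from GENCODE M21 on GRCm38, which named 14350 genes, and upstream sequences from RefSeq (GRCm38.p6).

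The main test was edgeR's quasi-likelihood F-test (edgeR 4.0.16 in R 4.3.3) on these counts. A minimum of 1 CPM in 2 or more libraries left out no gene. The design gave each of the 8 lines its own mean over the 24 libraries, scaled by TMM, with Benjamini-Hochberg adjustment over every gene. The standard error is the log2 fold change divided by the square root of F. Levels are CPM, divided by kilobases of the union of all annotated exons where genes are compared. Between replicates, chi-square per degree of freedom was at least 6.80, so no library was a repeat of another. Of 21 correlations of deviations between same-numbered libraries 2 were over 0.1, so the numbers were not treated as pairs.

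The 7 members and the gene lists were chosen with earlier results of these data known. Named genes were the members, *Trp53*, paralogs and overlapping genes that were counted, a fixed set of textbook partners and targets, and the 3 genes most correlated with each member. *Snai3*, *Epcam*, *Krt8*, and *Krt18* were not analysed here. Older symbols of 4 listed genes were matched to current ones. The alternatives were limma's voomWithQualityWeights (version 3.58.1), DESeq2 itself (1.42.0) or its size factors in edgeR, no filter or a minimum of 5 CPM in 3 libraries, a block for the replicate number, a fit restricted to the compared lines, stricter thresholds, and each library left out in turn. Figures were drawn with matplotlib 3.10.9.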

Additional observations from a re-analysis of the deposited data

Results flagged for a closer look

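The effect of a mutation differed between the male and the female culture, by the test of the difference itself, in 17 of 21 cases over the 7 members and 3 mutations (81.0%). The share of all genes that differed was 58.0% with p53 R172H, 68.0% with p53 Y202C and 54.8% with p53 Y217C. Values are the log2 effect in males minus that in females. For p53 R172H they were -0.49 for *Snai1*, 0.94 for *Snai2*, -0.23 for *Twist1*, -1.44 for *Twist2*, and -2.37 for *Prrx1*. For p53 Y202C they were -3.17 for *Snai1*, 0.21 for *Snai2*, -0.52 for *Twist1*, 0.56 for *Twist2*, 0.38 for *Zeb1*, and -0.36 for *Prrx1*. The call of *Snai2* there was lost in 13 of 19 alternative analyses, the replicate block included (adjusted p = 0.0622, edgeR). For p53 Y217C they were -1.42 for *Snai1*, -1.37 for *Snai2*, -1.07 for *Twist1*, 1.86 for *Twist2*, 0.97 for *Zeb1*, and 0.98 for *Prrx1*. A member rose in one culture and fell in the other, each past the threshold, for *Prrx1*, *Twist2*, and *Snai2* with p53 R172H, *Snai1* and *Twist2* with p53 Y202C, and *Snai2* and *Twist2* with p53 Y217C. Each culture gave 1 line per genotype, so sex, culture, the level of mutant *Trp53*, and the history of a single line cannot be told apart.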

How the results depend on the processing

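Over 70 log2 fold changes of members and 1036 values under the alternatives, no call changed direction. The main filter left out no gene, so the 70 values of the alternative without a filter could not differ from the main analysis. In 22 cases a call was lost, in 22 one was gained, and in 11 a value that had not passed changed sign; the cause was not tested. With a threshold of an absolute log2 fold change above 0.5 beside the adjusted p, the number of members called fell from 6 to 2 in male p53 R172H, from 7 to 2 in male p53 Y202C, from 4 to 2 in female p53 Y202C, from 4 to 1 between the p53 KO lines, and to 3 for the differences between cultures of p53 R172H (from 5) and p53 Y202C (from 6), because the rule leaves out changes that are small by construction. With each library left out in turn, the number called was 6 to 7 in male p53 Y202C, 4 to 5 in female p53 R172H, 3 to 4 in female p53 Y202C, 4 to 5 in female p53 Y217C and between the p53 KO lines, 4 to 6 and 5 to 6 for the differences of p53 R172H and p53 Y202C, and stayed at 6 in male p53 R172H, 5 in male p53 Y217C, and 6 for the difference of p53 Y217C. No share of all genes is given beside the counts under the log2 rule or with a library left out. Those counts describe the members and do not compare them with other genes. Values that changed sign were *Zeb1* between the p53 KO lines (0.00296 with the stricter filter, 0.00619 with limma, -0.0261 to 0.00942 without 1 library), *Twist1* in female p53 Y217C (-0.0158 with limma, -0.0297 to 0.034 without 1 library), and, without 1 library, *Zeb2* in female p53 Y217C (-0.051 to 0.121), *Prrx1* in female p53 Y202C (-0.136 to 0.00967), the p53 R172H difference of *Zeb1* (-0.0479 to 0.00292), and *Zeb2* between the p53 KO lines (-0.0127 to 0.112). Deviations of same-numbered libraries correlated between -0.17 and 0.24, and 10 of 21 libraries correlated best with their own number. With the replicate block the numbers of members called were 6, 7, and 5 in male p53 R172H, p53 Y202C, and p53 Y217C, 5, 4, and 4 in the female lines, 5, 5, and 6 for the differences, and 4 between the p53 KO lines, and the 1 call that changed was *Snai2* in the p53 Y202C difference (0.207). Of all 14427 genes, in the same order, the block fit called 5689, 10439, 10065, 9963, 9791, 8035, 8220, 9684, 7794, and 4313. Between the p53 KO lines limma called 7186 genes and edgeR 4482. Depth limits *Twist2*, at 118 to 1109 counts per library, more than the other members, and *Cdh1* rests on 2 to 324 counts.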
